A study of Mus musculus with 3 samples.

Results

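The clustered protocadherins are the 58 genes of the mouse annotation whose symbols start with Pcdha, Pcdhb or Pcdhg, out of 27083 genes for which a window at the gene start could be set. They lie side by side on chromosome 18 of build mm10, from the start of Pcdha1 at 36930285 to the end of Pcdhgc3 at 37841873. There were 12 alternate Pcdha genes and the C-type pair Pcdhac1 and Pcdhac2, 22 Pcdhb genes, 19 Pcdhg genes of the A and B types (Pcdhgb8 is annotated as a transcribed pseudogene) and the C-type genes Pcdhgc3, Pcdhgc4 and Pcdhgc5. Members were taken by name, and the peaks called in these same libraries then decided which member had counts. A member was measured by the transposition events (counts) in peaks that overlap its first-exon window. That window is the first 2500 bp of the gene, or the whole gene if shorter, with 1 kb on each side. Peaks in the clusters but in no such window and at no other gene are called shared cluster regions, and each was counted once.

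Clustered protocadherins are cell surface adhesion proteins known above all from neurons. In the Pcdha and Pcdhg clusters each variable exon has its own promoter and is spliced to constant exons at the end of the cluster, while each Pcdhb gene stands alone. In neurons CTCF and cohesin loop promoters to enhancers outside the variable exons, the alternate promoters are chosen at random from cell to cell, and the C-type promoters are used more evenly. An open promoter in an assay of chromatin is not a measure of transcription.

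The cells came from kidneys of mice with a point mutation in trnE, the mitochondrial gene for the glutamate tRNA, and every library carried it. Old replicate 1 was from 75-week-old kidney at 75% mutation load, old replicate 2 from 75-week-old kidney at 80%, and the single young library from 3-week-old kidney at 80%. Loads are as labelled and were not measured here, and the deposited files of old replicate 1 carry the number 80 in their names, whose meaning no label gives. Open chromatin was read by mtscATAC-seq, a single-cell ATAC method on fixed cells that keeps mitochondria inside while a transposase cuts accessible DNA. Whether the old libraries were made from different mice is not in the labels, so a p-value here reflects just how far these libraries lie apart, and that may be technical. Values in threes are in the order old replicate 1, old replicate 2, young.

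The libraries differed in cell makeup and depth. They kept 5315, 3950 and 3976 cells, with totals of 96093221, 64729297 and 110871506 counts over all barcodes. Immune-like cells were 90.6%, 0.228% and 8.45% of the cells, so old replicate 1 had only 118 proximal tubule-like cells against 3021 and 3248. Its proximal tubule-like cells were also shallower, with medians of 7164.5, 14366 and 28404.5 counts. Proximal tubule markers summed to 1248, 1317 and 1401 CPM in those cells (CPM, counts per 1e6 counts of the class in the regions used), and to between 140 and 202 CPM in loop to collecting duct-like cells. The latter were named from connecting tubule markers, 3 of 5 raised. Their thin limb markers were lower than in proximal tubule-like cells, at 248.9, 294.2 and 265.2 against 328.4, 399.3 and 425.4 CPM. Thick ascending limb markers stood at 410.5, 397.7 and 427.2 against 293.1, 412.2 and 417.9 CPM. Distal convoluted tubule, connecting tubule, principal cell and intercalated cell markers were higher in every library. Slc5a2 and Slc22a30, among the 15 proximal tubule markers, had no region shared by all libraries. Barcodes shared by a pair of libraries numbered between 28 and 39 before cells were filtered.

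Peaks lay at nearly all member promoters in at least 1 library, but the number differed by library and by cluster. Of the 58 members, the first-exon window held a peak at 28 for old replicate 1, at 55 for old replicate 2 and at 41 for young. No peak was called at Pcdhb2, Pcdhb9 or Pcdhb20. The median peak centre lay 26 bp after the annotated gene start, and 52 of the 66 merged regions were centred within 500 bp of it. The Pcdhgc5 window held a region centred 3166 bp after the start, so its values are those of a region inside the gene. Of 63 member regions called in old replicate 2, young shared 71.4%, and of its own 47 regions 95.7% were shared with old replicate 2. Over first-exon windows of all genes the same shares were 91.0% and 87.9%. Old replicate 1 shared 46.0% of the member regions of old replicate 2, against 75.3% over windows of all genes.

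Members called in old replicate 2 alone were mostly upstream Pcdha and scattered Pcdhb genes. The alternate Pcdha genes all had a peak there, while young had one at 6 of 12 and old replicate 1 at 2. For Pcdhb the numbers were 5, 19 and 12 of 22. For the A and B types of Pcdhg they were 17, 19 and 19 of 19, and the 3 C-type Pcdhg genes had a peak in every library. The 12 members called in old replicate 2 alone were Pcdha1, Pcdha2, Pcdha3, Pcdha5, Pcdha6, Pcdha9, Pcdhac1, Pcdhb5, Pcdhb10, Pcdhb15, Pcdhb18 and Pcdhb21. That was 21.8% of the 55 members with a peak in old replicate 2, against 2.17% of the 17535 windows of all genes with one. They held between 27 counts (Pcdhb5) and 227 counts (Pcdhac1) in its proximal tubule-like cells. The tables hold counts in called peaks only, so levels outside them were not measured, and a member without a peak is not shown to be closed. Variable exons of a cluster also resemble each other, and no source used here gives how the authors filtered reads that map to several places.

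Old kidneys were then compared with the young one over the windows that had a region in every library. No member passed edgeR's quasi-likelihood test in any cell class, at a Benjamini-Hochberg adjusted p under 0.05 over all windows tested. In proximal tubule-like cells 26 members were tested and 0 were called, and over all 15159 windows 0.145% were called. The lowest adjusted p of a member was 1.00. At an unadjusted p under 0.05 there were 2 members, Pcdhgb5 and Pcdhgb2, against 1.41% of all windows, and DESeq2 gave 0 members adjusted and 1 unadjusted. The members' median log2 difference of old over young was 0.74, with 23 of 26 above 0, against a median of 0.01 and 51.5% above 0 over all windows. Old replicate 1 gave at most 46 counts per member, and 0 counts at 6 members. The members' median was 1.14 without old replicate 1 and -0.30 without old replicate 2, so its sign depended on which old library was kept. In the proximal tubule-like clusters with at least 10 cells of every library it was -0.16, with 10 of 22 members above 0.

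Old replicate 2 lay above young at the alternate promoters with the most counts, and old replicate 1 lay on either side of young. Pcdhga12, the last A-type gene before the C-types, stood at 5.37, 17.3 and 7.88 CPM. Only old replicate 2 was high there, and the old libraries lay on both sides of the young value (log2 difference 0.70, SE 0.63). Pcdhgb6 stood at 13.8, 18.7 and 11.3 CPM, so both old libraries were above the young one, from 18, 719 and 867 counts. Pcdhgb4 at 6.91, 15.1 and 5.76 CPM had the same order, with old replicate 1 close to the young value. Pcdhga7 at 4.604, 14.04 and 6.81 CPM and Pcdhgb7 at 3.07, 12.5 and 6.56 CPM had old replicate 1 as the lowest library. Pcdhga11 at 6.14, 10.3 and 4.97 CPM had both old libraries higher, while the pseudogene Pcdhgb8, at 7.67, 11.6 and 9.92 CPM, did not. Among the 26 members tested, old replicate 2 exceeded the young library at 23 and old replicate 1 at 11, and 6 members had 0 counts in old replicate 1.

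The members nearest the threshold were B-type promoters at which both old libraries were above the young one. Pcdhgb5 stood at 15.3, 13.6 and 4.94 CPM, from 20, 524 and 380 counts, and the old values lay close together. Its log2 difference was 1.54 (SE 0.70, unadjusted p = 0.0276 and adjusted p = 1.00 by edgeR). Pcdhgb2 stood at 1.53, 5.71 and 0.832 CPM, with a log2 difference of 2.37 (SE 1.15, unadjusted p = 0.0391). Its value in old replicate 1 rested on 2 counts.

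**Figure D1:**
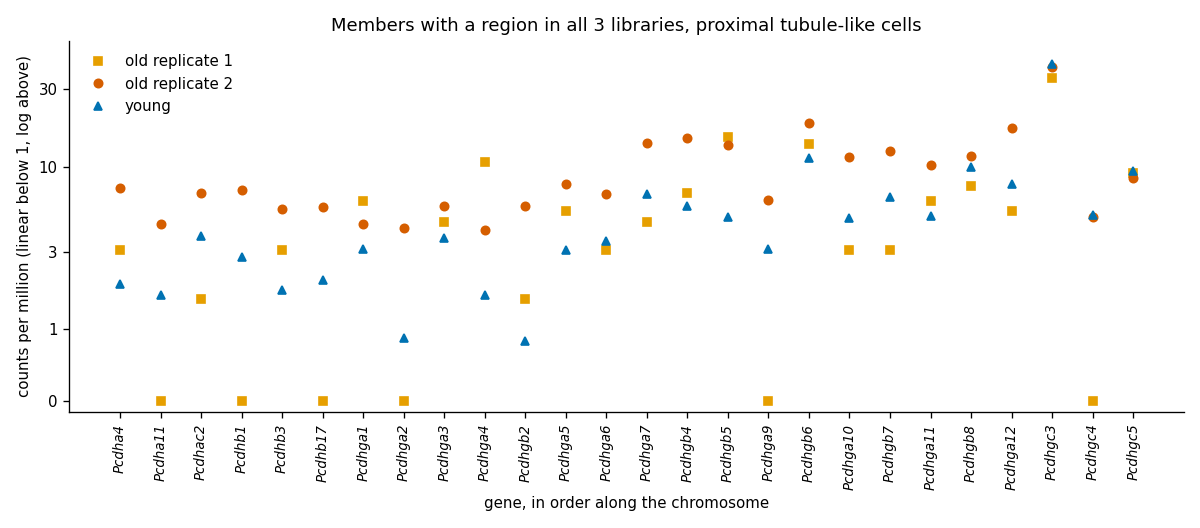
CPM (y axis, linear below 1 and logarithmic above) of the 26 members with a region in every library, in gene order (x axis), in proximal tubule-like cells, with 1 point per library. Old replicate 2 lies above young at 23 members, old replicate 1 at 11, and the libraries come together at Pcdhgc3 and Pcdhgc5.

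C-type promoters were not called either, and most did not have old replicate 2 as the highest library. Pcdhgc3 had the highest level of all members in proximal tubule-like cells, at 35.3, 41.3 and 43.1 CPM (log2 difference -0.13, SE 0.31, adjusted p = 1.00 by edgeR). The 3 libraries lay close together, with young the highest. Pcdhgc5 stood at 9.21, 8.54 and 9.44 CPM, and Pcdhgc4 at 0, 4.91 and 5.06 CPM, where old replicate 1 had 0 counts. Pcdhac2, the C-type gene of the Pcdha cluster that had a region in every library, stood at 1.53, 6.93 and 3.73 CPM, with old replicate 2 above young and old replicate 1 below it. Pcdhac1 had no region in every library.

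With old replicate 1 so thin in tubule cells, old replicate 2 and young were also set side by side over regions with a peak in both. This compares single libraries, with no test, and intervals are exact 95% intervals of counting error on fragments. All 41 members with such a region had at least 10 counts in both libraries. More than a 2-fold higher level in old replicate 2 was found at 24 of the 41, against 2.56% of the 16787 windows measured, and at 7.38% of the windows whose young level lay in the range of the alternate members. No member was over 2-fold lower, against 0.548% of all windows. The median ratio of the members was 2.27-fold, and the median log2 ratio over all windows was -0.06. Old replicate 2 differed from young in age, in depth per cell and as a library, and these cannot be told apart.

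**Figure D2:**
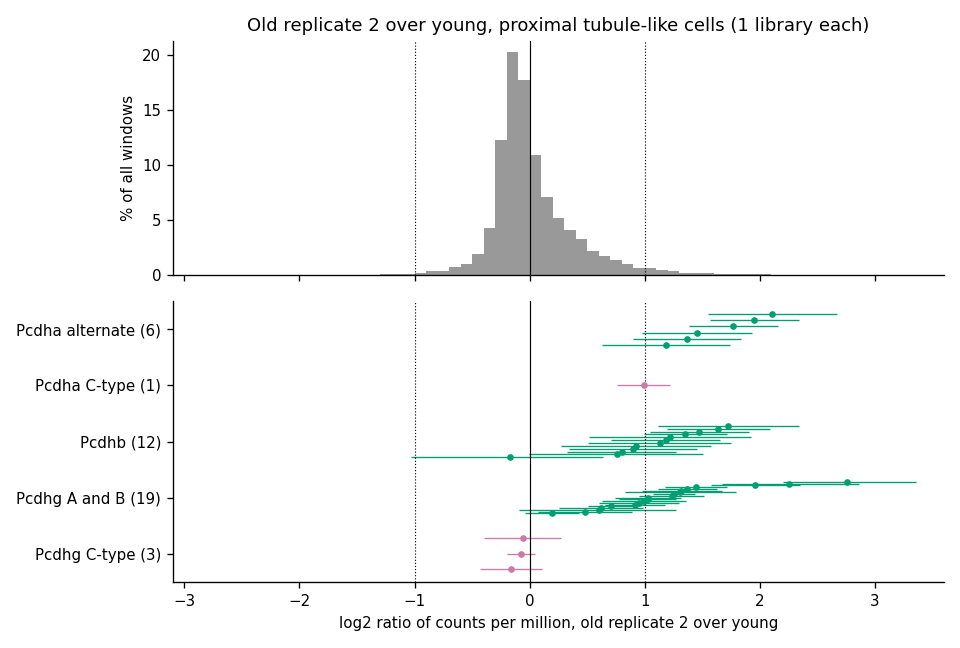
Log2 ratio of CPM in old replicate 2 over young, proximal tubule-like cells, 1 library each: the histogram gives the share of all windows (values beyond 3 drawn at 3), and the points below give members by group with exact 95% intervals of counting error. Dotted lines mark 2-fold; the alternate groups lie mostly at or above the right-hand line, while the 3 C-type Pcdhg genes lie at 0.89-fold to 0.96-fold.

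All 6 alternate Pcdha genes measured in both libraries were over 2-fold higher in old replicate 2, by 2.28-fold at Pcdha7 to 4.30-fold at Pcdha8. Pcdha4 stood at 6.30 CPM in old replicate 2 and 1.63 CPM in young, a ratio of 3.87 (2.97 to 5.07). Pcdha12 stood at 6.23 and 1.83 CPM. The neighbouring C-type gene Pcdhac2 had the higher level of 12.6 and 6.35 CPM and a ratio of 1.99 (1.69 to 2.34).

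Among the 12 Pcdhb genes, which have their own start and end, 7 were over 2-fold higher in old replicate 2 and the median ratio was 2.23-fold. Pcdhb1, at the head of the cluster, stood at 6.10 CPM in old replicate 2 and 2.39 CPM in young, a ratio of 2.56 (1.99 to 3.29). Pcdhb8 had the largest ratio of the group, 3.30 (2.17 to 5.08), from 117 and 70 counts. Pcdhb6 was the exception among the alternate members, at 0.793 and 0.892 CPM, with an interval of 0.489 to 1.56 that includes 1. Young levels of the group ran from 0.691 CPM at Pcdhb7 to 2.39 CPM at Pcdhb1.

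All 19 A-type and B-type Pcdhg promoters were higher in old replicate 2, 11 of them by over 2-fold. Ratios ran from 1.15 (0.974 to 1.35) at Pcdhgb8 to 6.79 (4.59 to 10.3) at Pcdhgb2, and 17 intervals lay above 1. Pcdhga2 had the next largest ratio of the group, 4.77, with 3.57 CPM in old replicate 2 and 0.747 CPM in young. Pcdhga12, the highest of the group, stood at 23.4 and 9.79 CPM. Levels increased along the cluster toward the constant exons: the rank correlation of gene order with level over these 19 genes was 0.76 in old replicate 2 and 0.74 in young, as a description, since the genes share libraries and depth.

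At the C-type Pcdhg genes every ratio interval of old replicate 2 over young included 1. Pcdhgc3 stood at 35.0 CPM in old replicate 2 and 37.0 CPM in young, a ratio of 0.947 (0.871 to 1.03). Pcdhgc4 gave 0.959 (0.759 to 1.21) and Pcdhgc5 0.895 (0.742 to 1.08). The ratio interval of the 3 genes together, 0.884 to 1.02 over regions in every library, did not overlap that of the A-type and B-type genes, 1.95 to 2.15.

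**Figure D3:**
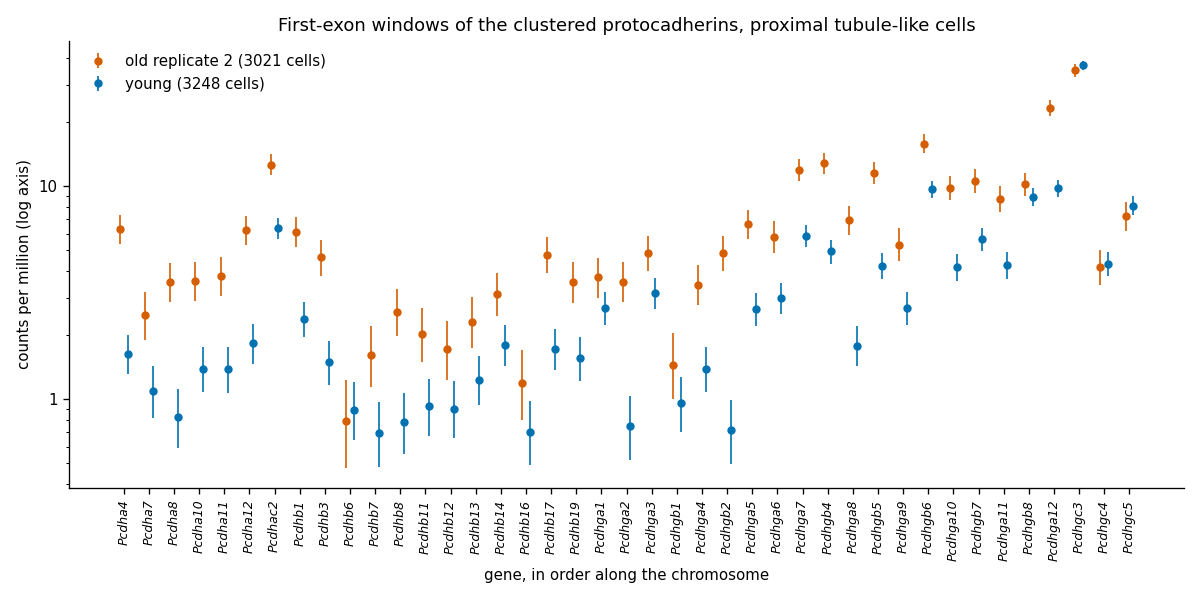
CPM (log axis) of the 41 members with a peak in both old replicate 2 and young, in gene order, proximal tubule-like cells, with exact 95% intervals of counting error. Old replicate 2 is above young along all 3 clusters except at Pcdhb6, and the libraries meet at Pcdhgc3, Pcdhgc4 and Pcdhgc5.

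Summed over the alternate promoters with a region in every library (2 Pcdha, 3 Pcdhb and 17 Pcdhg regions), proximal tubule-like cells stood at 103.6, 199.9 and 92.8 CPM. Old replicate 1 was 1.12-fold the young level (0.868 to 1.41), and old replicate 2 was 2.15-fold (2.06 to 2.25). Old replicate 2 also lay above old replicate 1, by 1.93-fold (1.52 to 2.48). Thus the old libraries did not share a level. Markers of neurons and glia, cells that use these genes, summed to 247, 293 and 248 CPM in the same cells. Of those 12 markers 9 had a region in every library, while Stmn2, Sox10 and Dbh had none, and their part in the result was not tested. Macrophage or dendritic cell markers, looked at because old replicate 1 was mostly immune-like, summed to 164.2, 157.7 and 152.5 CPM in the proximal tubule-like cells. That sum holds the 10 of 15 markers with a region in every library, and Adgre1, Cx3cr1, Itgax, Lyz2 and Ccr2 had none and were not measured.

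Proximal tubule-like clusters were filled unevenly by the libraries, so levels were also read within clusters. Clusters 2 and 4 were almost wholly young and stood at 88.5 and 80.4 CPM for the same alternate promoters. Clusters 3, 7 and 12 were almost wholly old replicate 2 and stood at 191.6, 214.2 and 211.8 CPM. In cluster 5, with 97 cells of old replicate 2 and 934 young cells, the values were 290.8 and 106.3 CPM. In cluster 17, with 191 and 52 cells, they were 197.1 and 149.2 CPM, and in cluster 10, with 358 and 63 cells, 138.8 and 106.4 CPM. Old replicate 1, with 67 cells in cluster 10, stood at 42.7 CPM there and was the lowest of the 3 libraries. Old replicate 2 was thus above young in each cluster that held at least 50 cells of both, but the intervals of the libraries overlapped in clusters 10 and 17. Members over 2-fold higher numbered 26 of 41 in cluster 5, 13 of 27 in cluster 10 and 12 of 32 in cluster 17, against 9.83%, 33.4% and 7.31% of all windows there. Members over 2-fold lower numbered 8, 2 and 2 in the same clusters, where the share of all windows over 2-fold lower was not counted. Clusters were built from the same counts, so these are descriptions.

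**Figure D4:**
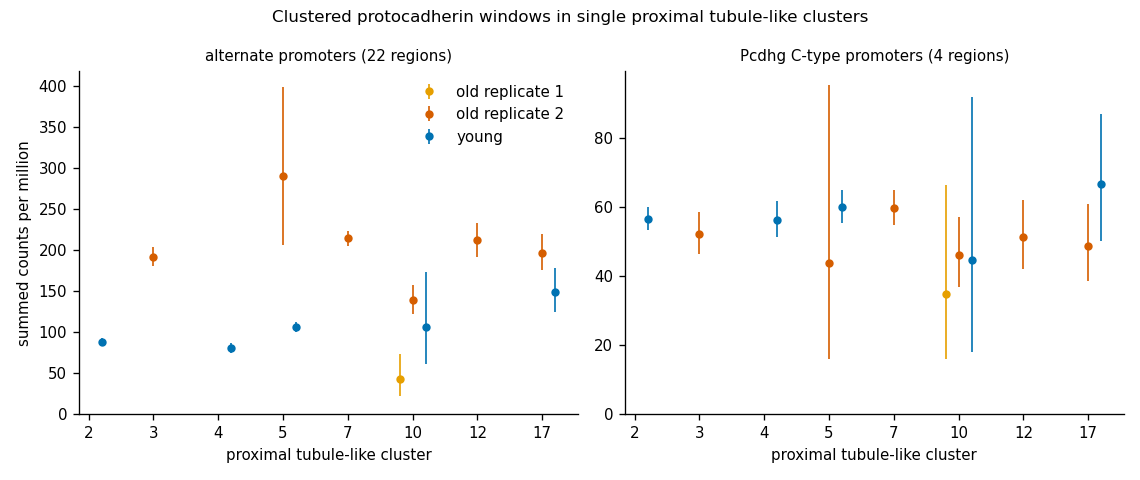
Summed CPM of alternate (left) and C-type Pcdhg (right) promoters with a region in every library, for each proximal tubule-like cluster and library with at least 50 cells, with exact 95% intervals of counting error. Alternate promoters run from 42.7 in old replicate 1 (cluster 10) to 290.8 in old replicate 2 (cluster 5), and the C-type intervals of the libraries overlap in each cluster that holds more than 1 library.

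Shared cluster regions numbered 11, of which 4 had a peak in every library. The strongest in proximal tubule-like cells, at chr18:37217888-37218788 in the gap between Pcdha and Pcdhb, stood at 32.2, 23.7 and 10.7 CPM. Both old libraries were higher than young there, from 42, 915 and 823 counts (log2 difference 1.32, SE 0.46, unadjusted p = 0.0074 and adjusted p = 1.00 by edgeR over 72315 regions). The region at chr18:37655249-37656143, upstream of Pcdhga1, also had both old libraries above young, at 11.5, 14.2 and 5.38 CPM (log2 difference 1.25, SE 0.58, unadjusted p = 0.0369). By contrast chr18:37824794-37825760, inside the stretch after Pcdhgc5, stood at 0, 2.41 and 3.29 CPM, and chr18:37835159-37836646, near the end of the Pcdhg cluster, at 1.53, 2.57 and 2.22 CPM. Of the 31 member and shared regions tested as single regions, 0 were called, against 0.0194% of all regions, and 5 had an unadjusted p under 0.05, against 1.55%. The promoter region of Taf7, which lies between Pcdhb and Pcdhg but is a general transcription factor gene, stood at 41.4, 40.7 and 39.7 CPM.

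Loop to collecting duct-like cells (52, 326 and 206 cells) gave a partly similar picture on far fewer counts. Of the 14 members tested 0 were called, against 0.199% of 14042 windows, and the lowest adjusted p of a member was 0.991 by edgeR. The median log2 difference was 1.01 with 14 of 14 above 0, against 0.01 over all windows. It was 1.04 over 17 members without old replicate 1 and 0.41 over 6 members without old replicate 2. These medians cover different members. Among the 14 members old replicate 1 lay above young at 9 and below it at 5, with 0 counts at 3. Pcdhb1 stood at 16.5, 15.1 and 4.604 CPM, both old libraries above young, from 14, 46 and 10 counts (log2 difference 1.74, SE 0.83, unadjusted p = 0.0372 and adjusted p = 0.991 by edgeR); it was the 1 member under 0.05 unadjusted, against 4.83% of all windows, and DESeq2 gave 0. Pcdhgc3 at 38.9, 62.2 and 34.5 CPM had old replicate 2 as the highest library, with the others close together in this sum of 2 regions. The region at its start stood at 38.9, 49.1 and 22.6 CPM, with both old libraries above young. The region centred 2502 bp after the start stood at 0, 13.1 and 12.0 CPM. Pcdhgc5 at 46.0, 31.1 and 35.9 CPM, Pcdhgc4 at 23.6, 15.4 and 10.1 CPM, Pcdhac2 at 7.08, 4.25 and 0.921 CPM and Pcdhgb8 at 14.2, 10.1 and 9.21 CPM were highest in old replicate 1, and only at Pcdhgc5 did the old libraries fall on both sides of young. Between old replicate 2 and young alone, 12 of 20 members were over 2-fold higher, against 6.91% of 14945 windows, and 0 were over 2-fold lower, against 2.65%, but only 4 of the 20 intervals lay above 1. Of those 4 members 1 was a C-type Pcdhg gene. Over regions in every library the C-type Pcdhg genes together gave a ratio of 1.35 (1.04 to 1.76). That interval overlapped the one of the A-type and B-type genes, 2.22 (1.62 to 3.09), unlike in proximal tubule-like cells. The difference in the age contrast between proximal tubule-like and loop to collecting duct-like cells was tested for 26 members with library as a term, and edgeR called 0 of them, with 0 at an unadjusted p under 0.05, against 4 of 14815 windows.

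In endothelium-like cells (187, 108 and 50 cells) the A-type and B-type Pcdhg promoters summed to 38.4, 81.7 and 52.5 CPM and the C-type Pcdhg genes to 79.8, 93.7 and 101.5 CPM. The alternate Pcdha and the Pcdhb promoters each summed to 3.499 CPM or less. With a region in every library there were 17 A-type and B-type, 3 C-type Pcdhg, 2 Pcdha and 3 Pcdhb promoters. Pcdhgc3 stood at 74.8, 88.9 and 91.0 CPM and its libraries lay close together (log2 difference -0.18, SE 0.31, adjusted p = 0.922 by edgeR). Pcdhga1 at 1.00, 14.4 and 3.50 CPM and Pcdhgb6 at 2.99, 12.0 and 17.5 CPM were the other members tested, from at most 12 counts each. edgeR called 0 of 3 members and 0% of 11541 windows. At an unadjusted p under 0.05 there were 0 members and 7.26% of all windows, and DESeq2 called 0. Between old replicate 2 and young alone, 1 of 4 members was over 2-fold higher, against 7.55% of windows.

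Across cell classes the clusters differed in which part was open, given here as a description because classes were named from the same counts. In old replicate 1, where immune cells were many, macrophage or dendritic cell-like cells (3280) held 0.206 CPM at the alternate Pcdha and 1.13 CPM at the Pcdhb promoters, against 43.9 CPM at the A-type and B-type Pcdhg promoters. T or NK cell-like cells (1227) held 0.388, 0.582 and 58.4 CPM. These sums cover unequal numbers of promoters, the 2 Pcdha, 3 Pcdhb and 17 A-type and B-type Pcdhg promoters with a region in every library. The C-type Pcdhg genes separated these classes, at 16.6 CPM (14.9 to 18.5) in macrophage or dendritic cell-like and 75.8 CPM (68.6 to 83.6) in T or NK cell-like cells. Most of that was Pcdhgc3, at 14.1 and 58.5 CPM. Neutrophil-like cells (166) held 9.48 CPM at the A-type and B-type promoters, from 12 counts. Against young, the A-type and B-type Pcdhg sum of old replicate 1 was 0.56-fold (0.37 to 0.888) in T or NK cell-like cells. It was 0.538-fold (0.287 to 1.02) in B or plasma cell-like and 1.25-fold (0.843 to 1.95) in macrophage or dendritic cell-like cells. Young had 75, 126 and 120 cells of these classes.

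B-type windows had the higher median in the larger immune-like classes. In macrophage or dendritic cell-like cells of old replicate 1 the median member stood at 0.900 CPM over 11 A-type and 4.16 CPM over 6 B-type genes, with Pcdhgb8 highest at 7.69 CPM. In T or NK cell-like cells the medians were 1.36 and 6.21 CPM, with Pcdhgb6 highest at 14.7 CPM. In proximal tubule-like cells the medians were 6.83 and 13.1 CPM in old replicate 2 and 3.48 and 6.16 CPM in young, so the B-type median was higher there as well. The region upstream of Pcdhga1 stood at 14.4 CPM in macrophage or dendritic cell-like cells and 0.776 CPM in T or NK cell-like cells, while the region between Pcdha and Pcdhb was near 0 in both, at 0.823 and 0.776 CPM.

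**Figure D5:**
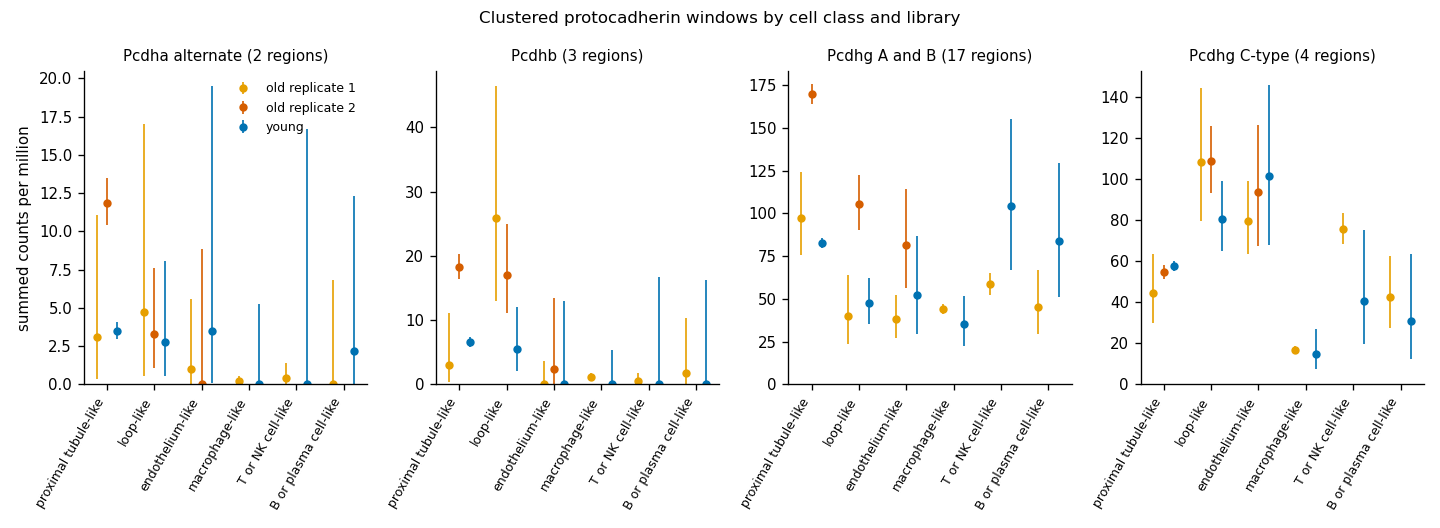
Summed CPM of windows with a region in every library, by cell class (x axis), library and group of members, with exact 95% intervals of counting error, for classes with at least 50 cells in a library. Alternate Pcdha promoters stand out in proximal tubule-like cells of old replicate 2, at 11.9. They stand at 3.07 in old replicate 1 and 3.51 in young of that class, and at 3.499 in young endothelium-like cells. Pcdhb promoters are higher in tubule cells than in the other classes. Both groups stand at 2.21 or less in immune-like cells, while the Pcdhg groups have counts in every class shown.

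Single proximal tubule-like cells of old replicate 2 and young were compared after each was thinned to 3000 fragments. This left out 516 shallower cells of old replicate 2 and 260 of young. A fragment at an alternate Pcdha promoter was found in 7.71% of 2505 cells (6.69 to 8.82) of old replicate 2 and 2.58% of 2988 young cells (2.04 to 3.21). For Pcdhb the shares were 10.3% and 4.22%, and for A-type and B-type Pcdhg 35.8% and 19.4%. The C-type Pcdhg shares were in the other order, at 12.3% (11.0 to 13.6) and 14.1% (12.9 to 15.4), with overlapping intervals. Without thinning the C-type shares were 28.4% and 44.6% and the A-type and B-type shares 61.1% and 56.3%, at median depths of 7498 and 14730 fragments. Macrophage or dendritic cell-like cells of old replicate 1, a class with few counts at these promoters (median 9676 fragments), had a share of 0.100% for Pcdha and 0.300% for Pcdhb when thinned, over the 2 and 3 promoters with a region in every library.

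Most thinned cells had a fragment at no more than 1 alternate promoter of the 37 measured. In old replicate 2, 53.6% of proximal tubule-like cells had none, 33.3% had 1, 10.4% had 2 and 2.71% had 3 or more, with 5 as the highest. In young the shares were 75.2%, 21.2%, 3.35% and 0.234%, with 3 as the highest. Old replicate 1 had 63 such cells after thinning and was compared over the 22 alternate promoters with a region in every library. There 76.2%, 62.5% and 79.4% of the cells had none, so old replicate 1 lay nearer to young than to old replicate 2. These counts depend on sampling at 3000 fragments per cell and do not tell how many promoters were open.

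Genes outside the clusters that are known to act with them or resemble them did not pass the test. Of 19 regulators of the clusters 14 were tested in proximal tubule-like cells, and edgeR called 0, with 0 at an unadjusted p under 0.05 and 0 called by DESeq2 (median log2 difference -0.01). Ctcf, the insulator protein that anchors promoter loops, stood at 52.9, 32.5 and 37.7 CPM, Smchd1, a silencer of clustered protocadherins, at 26.9, 34.2 and 36.5 CPM, and Setdb1, a histone H3 lysine methyltransferase, at 19.95, 14.2 and 14.2 CPM. Of 12 nonclustered protocadherins 6 were tested, with 0 called by edgeR or DESeq2 and 0 at an unadjusted p under 0.05 (median log2 difference 0.23), with Pcdh8 at 44.5, 33.2 and 25.6 CPM and Pcdh9 at 3.84, 7.35 and 2.91 CPM. Of 14 kidney cadherins and partners 5 were tested, with 0 called by edgeR or DESeq2 and 1 at an unadjusted p under 0.05 (median -0.01). That gene, Cdh6, a cadherin of the proximal tubule, stood at 47.6, 51.8 and 79.3 CPM (unadjusted p = 0.0193 and adjusted p = 1.00 by edgeR). Genes beside the clusters had no gene-start window here, and edgeR called 0 of 25 regions over them, with 0 at an unadjusted p under 0.05 (median -0.06). In loop to collecting duct-like and endothelium-like cells 0 genes of these lists were called by edgeR or DESeq2, and 0 of the regions read for genes of chromosome 18 were called by edgeR. At an unadjusted p under 0.05 were the Taf7 region in loop to collecting duct-like cells and, in endothelium-like cells, the Pcdh10 window and a region over Pcdh1.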

How the data were processed

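Per the submitters' processing notes, Cell Ranger ATAC 2.1.0 and build mm10 were used by the authors. The deposited matrices give, for each peak and barcode, unnormalized counts of transposase cuts, and each library has its own peak set. Of the deposited counts, 94.3%, 90.9% and 89.5% were even, since both ends of a fragment count, so exact 95% intervals (Poisson, Clopper-Pearson, or conditional binomial for ratios) were set on fragments, the count over 2 rounded up. They cover counting error only. The members and all gene lists were chosen with earlier results of these data known.

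Peaks overlapping by at least 1 bp were merged into 250005 regions, 72317 of them with a peak in every library. Barcodes with under 1000 counts and 248, 133 and 135 likely doublets were removed. Latent semantic indexing and Leiden clustering (leidenalg 0.10.2, seed 7) gave 20 clusters, named from 20 marker sets by rules revised after the clusters had been seen, first from common regions against the lower quartile of clusters and then from all merged regions against the median. A name needed at least 3 raised markers. The proximal tubule-like clusters were 2, 3, 4, 5, 7, 10, 12 and 17. Clusters 13, 15 and 19 had no name. Exons and strand on chromosome 18 were not used here, so the first-exon window was set from the gene start, with members read on the plus strand. CPM are counts over the class total in the regions used. Genes of chromosome 18 other than the members had no window and were read by region over the gene and 1 kb on each side.

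Sums per library and class were tested with edgeR 4.0.16 (quasi-likelihood, TMM, filterByExpr, Benjamini-Hochberg over all windows) where every library had at least 20 cells. DESeq2 1.42.0 was an alternative. On simulated counts with 200 genes changed 4-fold edgeR recovered 91%, 73% and 71% of those tested in proximal tubule-like, loop to collecting duct-like and endothelium-like cells. These shares are for 4-fold changes over genes of all levels, not for the members at their counts. Named members were those with the highest mean CPM (10 in proximal tubule-like cells, 5 in the other tested classes), the C-type genes and the members nearest the threshold. Other members were named after their values were seen.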

Additional observations from a re-analysis of the deposited data

Results flagged for a closer look

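Cells in clusters without a name entered no comparison, and their A-type and B-type Pcdhg promoters (regions in every library) had signal above the limit that a count of 0 allows, 3 counts. Cluster 13, whose first set was proximal tubule, stood at 141.9 CPM in old replicate 2 (294 cells) and 84.7 CPM in young (69 cells). Cluster 15, whose first set was injured proximal tubule, stood at 125.9 CPM in old replicate 1 (127 cells) and 113.4 CPM in old replicate 2 (183 cells), so the old libraries lay close together there. Cluster 19, a shallow cluster of 63 young cells, stood at 188.4 CPM from 30 counts.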

How the results depend on the processing

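No paired analysis was possible because there was a single young library and no label links it to an old one. No member was called in any class under any setting run with a test. Without old replicate 1 and without old replicate 2 the median log2 difference of the members was 1.14 and -0.30 in proximal tubule-like cells, over 26 members each. It was 1.04 over 17 and 0.41 over 6 members in loop to collecting duct-like cells. In endothelium-like cells it was -0.25 over 2 and -0.31 over 3 members, and 0.42 with no filter on low counts (23 members). With old replicate 1 or 2 left out, the log2 difference in proximal tubule-like cells ranged from -1.32 to 0.94 at Pcdhac2, -0.63 to 1.09 at Pcdhga7, -1.15 to 0.98 at Pcdhgb7, -0.435 to 0.28 at Pcdhgb8, -0.61 to 1.19 at Pcdhga12 and -6.64 to 0.011 at Pcdhgc4 (0 counts in old replicate 1), and from -0.19 to 0.31 at Pcdhgc5 in loop to collecting duct-like cells. The cause was not tested. Within the shared clusters Pcdhga7 was -0.46, Pcdhgb4 -0.29, Pcdhga11 -0.58 and Pcdhgb8 -0.56 (log2). Pcdhgb8 was -0.022 with all merged regions and -0.069 with clusters 13 and 15 added, an alternative chosen after seeing the data, as were the window of 1 kb around the gene start and all alternatives of the 2-fold count; with those clusters Pcdhgc4 was 0.24 and Pcdhgc5 0.16. Pcdhgc5 was -0.018 in loop to collecting duct-like cells on fragments. With all merged regions, which adds regions missing in some libraries, the Pcdha, Pcdhb and Pcdhg windows summed to 54.05, 46.3 and 200.8 CPM in proximal tubule-like cells of old replicate 2 and to 14.4, 14.6 and 124.4 CPM in young. In loop to collecting duct-like cells they were 16.55, 33.9 and 183.4 CPM in old replicate 2, and Pcdhb was 16.3 CPM in young. In endothelium-like cells Pcdhb and Pcdhg were 4.635 and 92.3 CPM in old replicate 1, Pcdha and Pcdhb 9.54 and 30.7 CPM in old replicate 2 (Pcdhb 0 in cells with at least 3000 counts), and Pcdhb 15.7 CPM in young. The count of 24 members over 2-fold higher in old replicate 2 than young in proximal tubule-like cells was 25 on fragments. It was 24 with the other window or with at least 3000 counts per cell, and 27 with the median of all windows set to 0. Within clusters 5, 10 and 17 it was 26, 13 and 12. There 8, 2 and 2 members were over 2-fold lower, and the share of all windows over 2-fold lower was not counted. Old replicate 1 gave at most 46 counts per member in proximal tubule-like cells, which limits what its values can show.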
